A study of Mus musculus with 6 samples.

Results

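In an iPS cell line obtained with Tet1, Sox2, Klf4 and c-Myc, the regions enriched for 5-hydroxymethylcytosine (5hmC) were set against those enriched for 5-methylcytosine (5mC). The members were all peaks of the 5hmC list and of the 5mC list of the iPS stage, 235250 of the 663518 peaks of the series. The 5hmC list held 174079 of them and the 5mC list 61171. A peak was counted as carrying both marks where it overlapped a peak of the other list by at least 1 bp, which gave 4 classes: 5hmC peaks with 5mC, 5hmC peaks without 5mC, 5mC peaks with 5hmC and 5mC peaks without 5hmC.

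5mC is the methyl mark that DNA methyltransferases place on cytosine, in mammals mostly at CpG. The Tet enzymes oxidise it to 5hmC, which is an intermediate of active demethylation and is also found as a lasting mark in pluripotent cells and neurons. Dense CpG islands at promoters usually carry little 5mC, whereas most other CpG of the genome are methylated.

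All cells came from the strain OG2-GFP/Rosa26-M2rtTA, in which the reverse transactivator that answers to doxycycline is expressed from the Rosa26 locus and green fluorescent protein reports Oct4 activity. The iPS line came out of a secondary reprogramming system, that is, from cells of mice that already carried the inducible factors, and was used at passage 10 to 15. It was kept with LIF on mitomycin-treated embryonic fibroblasts, which were thinned out before collection by letting them settle on a fresh dish, and the share of feeder DNA left was not measured. The earlier stages, used here for comparison, were fibroblasts of TSKM iPS mice at passage 4 and such fibroblasts after 3 days of doxycycline (day 3). A polyclonal antibody captured 5hmC and a monoclonal antibody captured 5mC, with 1 library per stage and mark and 6 in all. There is no replicate error, so no p-values are given. Read depth is unknown, and it acts on the number, width and score of peaks. All intervals are 95% intervals that cover counting error alone, and neighbouring peaks are not independent. The labelled cell type could not be checked from peak lists.

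The deposited 5hmC peaks covered more of the iPS genome than the 5mC peaks, and 67.2% of the listed 5mC peaks lay on a 5hmC peak. Covered length depends on depth and on the antibody, and is not the amount of either mark. Peaks of either mark covered 210.1 Mb together. Of this, 150.4 Mb (71.6%) lay under 5hmC peaks alone, 36.2 Mb (17.2%) under both marks and 23.5 Mb (11.2%) under 5mC peaks alone. Of the bases in 5mC peaks 60.6% were also in a 5hmC peak, and of the bases in 5hmC peaks 19.4% were also in a 5mC peak. For reference, the iPS 5hmC list covered 7.24% of the 2577 Mb between the first and last listed positions of the chromosomes, and the 5mC list 2.32%.

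Counted as peaks, 40857 of the 174079 5hmC peaks overlapped a 5mC peak, or 23.5% (23.3 to 23.7, Wilson interval), and 133222 did not. From the other side, 41078 of the 61171 5mC peaks overlapped a 5hmC peak, or 67.2% (66.8 to 67.5), and 20093 did not. These shares follow the unequal lengths of the lists. When each list was held to 61171 peaks, those with the highest scores, they were 38.3% and 40.6%, and with a score of at least 100 in both lists they were 13.6% and 70.1%. The share was the lower one for 5hmC in each of these settings, though with lists of equal length both were nearly alike. As the overlapping peaks were nearly equal in number on both sides, this order follows mostly from the list lengths.

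Where the marks met, they mostly met as single peaks on nearly the same centre. The 2 lists formed 42956 overlapping pairs, of which 35742 (83.2%) joined a 5hmC peak and a 5mC peak that each overlapped no other peak. The median overlap was 798 bp (quartiles 669 and 958), and 1361 pairs (3.17%) overlapped by under 100 bp. The centres were 167 bp apart at the median, and within 200 bp in 54.5% of the pairs. The median 5mC peak had 92.6% of its length inside its 5hmC partner, while the median 5hmC peak had 74.6% inside its 5mC partner. In 14874 pairs (34.6%) the 5mC peak lay wholly within the 5hmC peak, and in 6061 (14.1%) the 5hmC peak lay wholly within the 5mC peak. The 5hmC peak was the wider one in 66.0% of the pairs, with a median width of 1120 bp against 927 bp. Over the pairs, the scores of both marks were weakly related, with a Spearman rho of 0.24 across 42956 pairs that share their DNA, cells and base composition, and the widths likewise with a rho of 0.27.

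**Figure D1:**
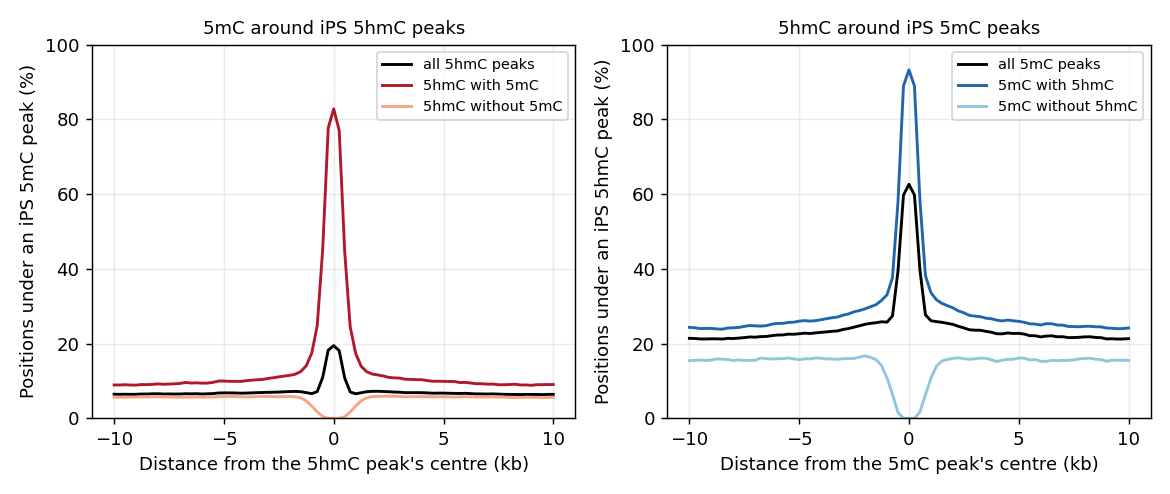
Percentage of positions covered by iPS 5mC peaks around the centres of iPS 5hmC peaks (left) and by iPS 5hmC peaks around the centres of iPS 5mC peaks (right), against the distance in kb, for all peaks of a list and for its 2 classes. At the centre 19.4% of all 5hmC peaks and 62.6% of all 5mC peaks were covered by the other mark, against 6.40% and 21.3% at 10 kb.

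The other mark was concentrated at the peak itself, as the plot of coverage around peak centres shows. 5mC covered 19.4% of the 5hmC centres and 6.40% of the positions 10 kb away from them, a ratio of 3.04. 5hmC covered 62.6% of the 5mC centres and 21.3% of the positions 10 kb away, a ratio of 2.93. The same ratios were 2.56 and 2.86 in fibroblasts and 2.09 and 2.04 at day 3, and differences between stages could not be tested with 1 library each.

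The flanks differed between the classes. Around 5hmC peaks with 5mC, 5mC covered 8.96% of the positions at 10 kb, against 5.62% around 5hmC peaks without 5mC. Around 5mC peaks with 5hmC, 5hmC covered 24.2% at 10 kb, against 15.4% around 5mC peaks without it. At that distance the classes without the other mark still had more of it than its list covers on average, 2.32% for 5mC and 7.24% for 5hmC. The own mark was also denser around shared peaks. 5hmC covered 23.8% of the positions 10 kb from 5hmC peaks with 5mC and 19.4% of those from 5hmC peaks without it, and 5mC covered 9.11% around 5mC peaks with 5hmC and 6.29% around those without.

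Peaks that lacked the other mark were often close to it. 5mC peaks without 5hmC lay a median of 2215 bp (quartiles 763 and 6300) from the nearest 5hmC peak, and 30.8% of them lay within 1 kb and 70.2% within 5 kb. 5hmC peaks without 5mC lay a median of 6942 bp (quartiles 2396 and 18056) from the nearest 5mC peak, with 12.5% within 1 kb and 41.3% within 5 kb. Only 238 of the 5mC peaks without 5hmC (1.18%) and 5239 of the 5hmC peaks without 5mC (3.93%) were over 100 kb from the other mark. The 5hmC list is the longer one, which by itself brings 5hmC peaks closer to any place.

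**Figure D2:**
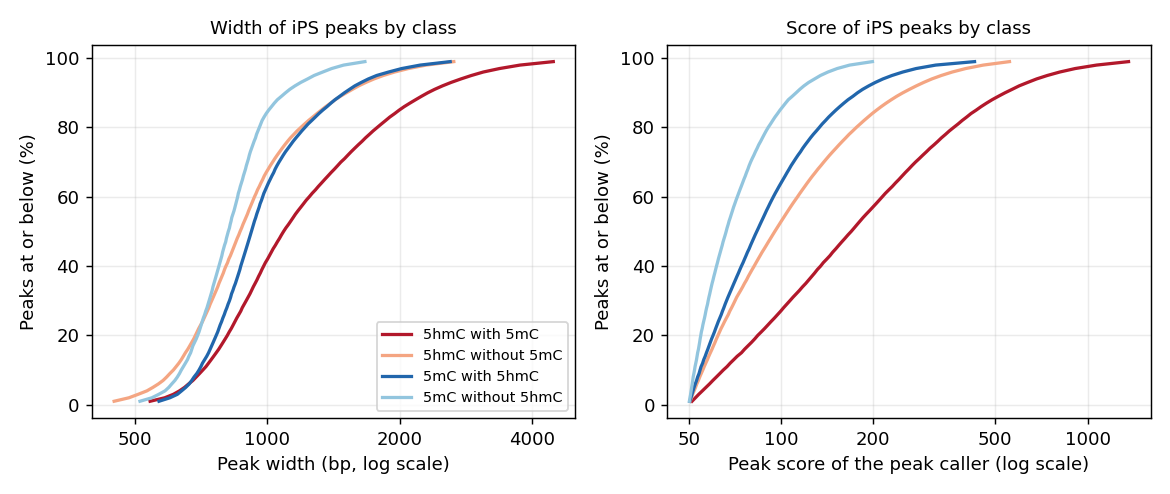
Cumulative percentage of iPS peaks by width in bp (left) and by the peak caller's score (right), both on log axes, for the 4 classes from the 1st to the 99th percentile. Within each list the curve of the peaks with the other mark lies to the right of that of the peaks without it, in both panels; scores of the 5hmC and 5mC lists are not on a common scale.

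In both lists, peaks with the other mark were wider. 5hmC peaks with 5mC had a median width of 1089 bp (1083 to 1095, order-statistic interval; quartiles 852 and 1611), and 5hmC peaks without 5mC one of 867 bp (866 to 869; quartiles 718 and 1096), a difference of 222 bp. 5mC peaks with 5hmC had a median width of 920 bp (918 to 923; quartiles 792 and 1130), and 5mC peaks without 5hmC one of 815 bp (812 to 818; quartiles 715 and 927), a difference of 105 bp. A wider peak is more likely to touch another peak, so part of such a difference is set by the way the classes are defined. The 5hmC difference was 129 bp when the overlap had to reach 50% of the 5hmC peak's length, 353 bp with a score of at least 100 and 825 bp when peaks within 1000 bp were joined. In fibroblasts the differences were 81 bp for 5hmC and 51 bp for 5mC, and at day 3 they were 126 bp and 112 bp.

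Broad peaks, of at least 3 kb, were almost all shared on the 5mC side. Of the 226 broad 5mC peaks 223 (98.7%) overlapped 5hmC, and of the 2556 broad 5hmC peaks 1850 (72.4%) overlapped 5mC, against 67.2% and 23.5% of all peaks. Broad peaks made up 4.53% of the 5hmC peaks with 5mC and 0.530% of those without. The widest peak of each list, named after the values were seen, carried both marks. For 5hmC it lay on chromosome 4 from 141017948 to 141035953 (mm9, as all positions here), was 18.0 kb wide and overlapped 6 5mC peaks over 11.9 kb. For 5mC it lay on chromosome 11 from 3059387 to 3100422 and was 41.0 kb wide. On that peak 5hmC covered 37.8 kb in iPS cells, and each of the 4 lists of the earlier stages covered between 40.8 and 41.0 kb of it. Nearly all of this place thus lay under peaks of every library, with both antibodies. Whether an input library was used is not stated, and whether the place carries either mark was not tested.

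Peaks with both marks also had the higher scores within each list. The median score of the 5hmC peaks was 169.4 with 5mC (167.4 to 171.1) and 95.4 without it (95.04 to 95.84). The median score of the 5mC peaks was 83.3 with 5hmC (82.8 to 83.8) and 66.2 without it (65.9 to 66.5). The difference for 5hmC, 73.98, was 119.3 with a score of at least 100. A score of at least 100 was reached by 72.9% of the 5hmC peaks with 5mC, 47.1% of those without, 36.0% of the 5mC peaks with 5hmC and 14.6% of those without. Of the 51 5hmC peaks with a score of 3100 or more, 50 overlapped a 5mC peak, and all 36 such 5mC peaks overlapped a 5hmC peak. The value 3100 itself recurred, in 45 of these 5hmC and 33 of these 5mC peaks, and may be a limit of the peak caller, so peaks at it cannot be ranked among themselves. Scores of different lists were not ranked against each other, since they depend on depth. A score of 100 need not mean the same in both lists, so the shares that reach it are to be compared within a list only.

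**Figure D3:**
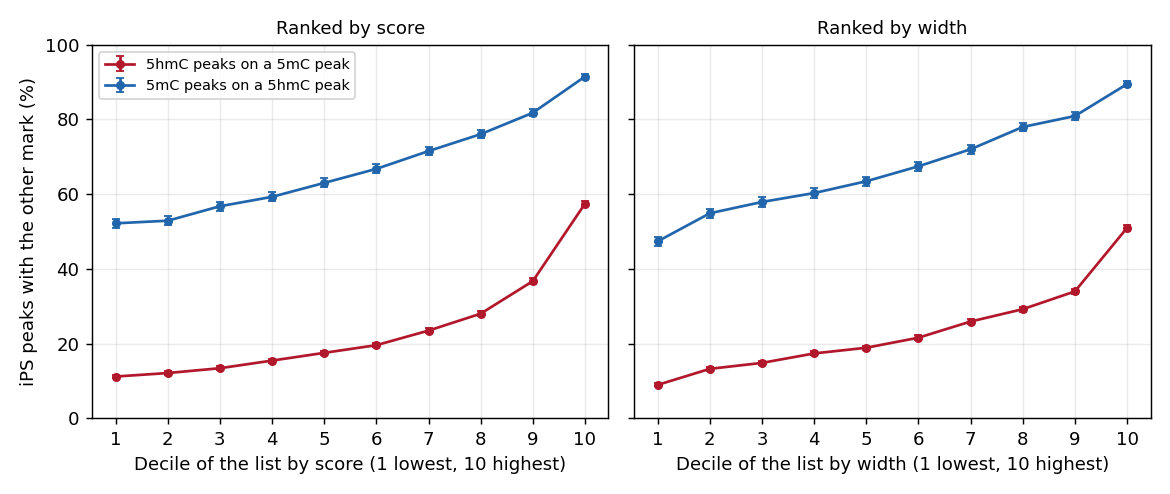
Percentage of iPS 5hmC peaks on a 5mC peak and of iPS 5mC peaks on a 5hmC peak, by decile of the score (left) and of the width (right) within the own list. Points are shares and bars their 95% Wilson intervals; by score the share goes from 11.2% to 57.4% for 5hmC and from 52.2% to 91.5% for 5mC.

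Ranked by score, the share of 5hmC peaks with 5mC was higher in each decile than in the one before it. It was 11.2% in the lowest-scoring decile (scores up to 56.51), 17.5% in the fifth and 57.4% in the highest (from 320.3). The share of 5mC peaks with 5hmC was 52.2% in the lowest decile (up to 53.34), 63.0% in the fifth and 91.5% in the highest (from 157.2). The highest decile of the 5hmC list carried 5mC 5.14 times as often as the lowest in iPS cells, against 2.46 times in fibroblasts and 2.00 times at day 3. In percentage points the highest decile of the 5hmC list exceeded the lowest by 46.3 in iPS cells, 29.3 in fibroblasts and 31.5 at day 3. For the 5mC list, whose iPS share starts high, it did so by 39.3, 6.69 and 30.6 points, with ratios of 1.75, 1.75 and 2.55. Differences between stages were not tested.

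Width and score go together, so the share was also taken by quintile of score within quintiles of width. Among the narrowest quintile of the 5hmC peaks (up to 707 bp), 10.3% carried 5mC in the lowest and 14.8% in the highest quintile of score. Among the widest (from 1326 bp), the shares were 24.4% and 69.2%. For 5mC peaks of up to 737 bp the shares with 5hmC were 49.7% and 54.7%, and for those from 1124 bp they were 73.1% and 94.9%. In each of the 5 width groups of both lists the share was higher in the highest than in the lowest quintile of score. Width was nearly level within the narrowest 5hmC group, with medians of 621 bp in the lowest and 632 bp in the highest quintile of score. In the widest group it was not, with medians of 1465 and 2574 bp for 5hmC and of 1250 and 1927 bp for 5mC, so the larger gaps there came with a difference in width. In turn, within quintiles of score, 5hmC peaks with 5mC were wider than those without by 18 to 30 bp in the 4 lower quintiles and by 170 bp in the highest. For 5mC peaks these differences were 14 to 33 bp and 152 bp.

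The best-scoring peaks with both marks stood on 3 different autosomes for 5hmC. They were on chromosome 2 from 76546812 to 76551159 (score 3220.5), where a 5mC peak of 6145 bp scored 1720.2, on chromosome 8 from 125415054 to 125421614 (3200.2), where a 5mC peak of 5639 bp scored 1317.7, and on chromosome 4 from 140876291 to 140882283 (3156.0), where the 5mC peak was 937 bp wide and scored 99.47. The first of these was on 5mC peaks in fibroblasts and at day 3 and on no earlier 5hmC peak. The second was on a day-3 5hmC peak as well, and the third on peaks of all 4 earlier lists.

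Among 5hmC peaks without 5mC, the best-scoring one lay on chromosome Y from 2897428 to 2902368. It had the recurring score of 3100, no overlapping peak in any of the other 5 lists and a 5mC peak 134 bp away. The next were on chromosome 4, from 136356221 to 136360441 (1876.2) and from 148320750 to 148326112 (1765.7), at 639 bp and 1693 bp from the nearest 5mC peak. Both overlapped peaks of all 4 earlier lists, so that at these places 5mC was listed at the earlier stages and not in iPS cells.

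The best-scoring 5mC peaks with 5hmC were on chromosome 18 from 3004068 to 3006765 (3175.9), on chromosome X from 166426436 to 166429321 (3149.8) and on chromosome 2 from 27350957 to 27354158 (3127.2). Their 5hmC partners scored up to 3106.6, 2764.8 and 1202.9, and each of the 3 places had peaks in all 4 earlier lists. Every list of both antibodies thus had a peak there, and whether these places carry either mark was not tested. The best-scoring 5mC peaks without 5hmC had lower scores. They lay on chromosome X from 166434725 to 166436249 (1049.5) and from 120115637 to 120117567 (932.5) and on chromosome 17 from 13743212 to 13746191 (737.8). The nearest 5hmC peak was 262 bp, 99311 bp and 1858 bp away.

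Most peaks of either list had a near neighbour of the same mark. Another 5hmC peak lay within 5 kb of 81.2% of the 5hmC peaks, and another 5mC peak within 5 kb of 55.0% of the 5mC peaks. The 5hmC list is 2.85 times as long, which by itself raises its share, and the 2 lists were not ranked by clustering. For 5hmC peaks the share was 87.0% (86.6 to 87.3) with 5mC and 79.5% (79.3 to 79.7) without it. For 5mC peaks it was 59.2% (58.7 to 59.6) with 5hmC and 46.4% (45.7 to 47.1) without it. Peaks with both marks thus had a near neighbour more often in both lists, by 7.49 and 12.7 percentage points. The first difference was 3.10 points within 20 kb, where nearly all 5hmC peaks have a neighbour, and the second was 8.15 points within 1 kb. Within quintiles of width or of score the share with a neighbour was also the higher one for peaks with the other mark in each of the 5 groups of both lists.

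A peak that followed one with the other mark carried that mark more often than a peak that followed one without it, beside 23.5% of all 5hmC peaks and 67.2% of all 5mC peaks. After a 5hmC peak with 5mC, the next 5hmC peak within 1 kb also carried 5mC in 42.1% of cases (41.3 to 43.0), and after one without 5mC in 22.4% (21.9 to 22.8). After a 5mC peak with 5hmC, the next 5mC peak within 1 kb also carried 5hmC in 81.2% of cases (80.1 to 82.2), and after one without in 58.3% (56.0 to 60.6). At any distance along the chromosome these shares were 32.1% and 20.8% for 5hmC, and 71.3% and 58.7% for 5mC. A single peak of the other list can overlap successive peaks and so give the mark to each of them. Among 5mC peaks, 1765 overlapped 2 5hmC peaks and 49 overlapped 3 or more. Among 5hmC peaks, 1778 overlapped 2 5mC peaks and 147 overlapped 3 or more. Such cases were not taken out, so part of these differences, above all within 1 kb, is set by the way the classes are defined.

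When peaks of both lists within 5 kb were joined, they formed 65927 clusters. Clusters of 5hmC peaks alone were the most frequent kind (35144, 53.3%), and 68.3% of them were a single peak. Clusters with overlapping peaks of both marks were fewer (21171, 32.1%) but held 67.3% of all peaks, 62.0% of the 5hmC peaks and 82.3% of the 5mC peaks, with a median of 5 peaks over 8.43 kb. Clusters with both marks and no overlap numbered 4417 (6.70%). Clusters of 5mC peaks alone numbered 5195 (7.88%), held 9.14% of the 5mC peaks and were a single peak in 93.2% of cases. A cluster with both marks cannot be a single peak, and a larger cluster is more likely to hold both marks. Part of these differences in size is therefore set by the way the kinds are defined. The largest clusters were picked out after the values were seen. The first held 83 5hmC and 52 5mC peaks on chromosome 16 from 89784660 to 90055318, and the next held 95 and 39 on chromosome 8 from 111251841 to 111490688.

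Runs of consecutive peaks of a single class were taken over both iPS lists in order of position. The longest were of 5hmC without 5mC, the most frequent class, with 133222 of the 235250 peaks. A frequent class gives longer runs by itself. The longest run of consecutive peaks of that class held 50 peaks on chromosome 4 from 149643752 to 149863466, followed by 45 peaks on chromosome 3 from 89757577 to 90039982 and 42 on chromosome 6 from 52172217 to 52378931. Each spanned over 200 kb in which no iPS 5mC peak was listed. For the other classes, picked out after the values were seen, the longest run of 5mC peaks without 5hmC held 12 peaks on chromosome 10 from 82840641 to 82939789, over 99.1 kb. That class had 20093 peaks. A shared peak lies next to its partner from the other list, which cuts short the runs of either shared class alone. Taking peaks with both marks from either list as a single class, their longest run held 27 peaks over 42.3 kb on chromosome 4 from 43542629 to 43584965.

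Most windows of 100 kb with any listed peak held iPS peaks of both marks. Each list reached most of the windows, which by itself makes shared windows frequent. How many would be shared without any relation of the marks was not tested. Of the 22088 windows with a peak in any of the 6 lists, 12966 (58.7%) had iPS peaks of both marks, 4832 (21.9%) of 5hmC alone, 538 (2.44%) of 5mC alone and 3752 (17.0%) of neither. Over these windows, with the 3752 that had neither mark included, the covered length of both marks had a Spearman rho of 0.84. The numbers of 5hmC peaks without 5mC and of 5mC peaks without 5hmC had one of 0.50. These windows share their libraries, and CpG content was not analysed here. The share of peaks with the other mark was higher in windows with more peaks. It was 9.89% for 5hmC peaks that were alone in their window and 30.9% in windows of at least 30 5hmC peaks. For 5mC peaks it was 44.5% and 82.4% in windows with 1 and with 20 to 29 5mC peaks.

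The windows with the most bases under both marks differed in how far the earlier lists covered them. On chromosome 11 from 3000001 to 3100000, 67.0 kb lay under both marks, and each of the 4 earlier lists covered 71.9 to 77.9 kb there. On chromosome 1 from 90100001 to 90200000 it was 49.0 kb, with 53.0 to 88.8 kb in the earlier lists. On chromosome 5 from 116300001 to 116400000, in contrast, 38.4 kb lay under both marks in iPS cells, and fibroblasts had 65.4 kb of 5mC and 6.10 kb of 5hmC. The chromosome 11 window holds most of the widest 5mC peak, and the chromosome 1 window was also covered by every list over much of its length. Whether these places carry either mark was likewise not tested.

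The 3 windows in which 5hmC most exceeded 5mC are given with their fibroblast values, at a stage where the 5mC list covered 110.8 Mb in all and the 5hmC list 35.9 Mb. On chromosome 18 from 75400001 to 75500000 the iPS lists covered 56.4 kb with 5hmC and 7.29 kb with 5mC, while fibroblasts had 4.29 kb and 22.4 kb. On chromosome 4 from 149200001 to 149300000 the iPS values were 60.3 kb and 12.8 kb, and the fibroblast values 8.01 kb and 24.1 kb. The third, on chromosome 1 from 191600001 to 191700000, had 68.3 kb of 5hmC and 20.7 kb of 5mC in iPS cells, and fibroblasts had 6.46 kb and 40.9 kb. The excess of 5mC over 5hmC was smaller. It was largest in the window on chromosome 1 already named, where 5mC covered 82.3 kb and 5hmC 50.4 kb. Next came chromosome 3 from 25400001 to 25500000, where 5mC covered 37.7 kb and 5hmC 9.66 kb. The third was chromosome 2 from 77700001 to 77800000, where 5mC covered 22.9 kb against 4.46 kb in fibroblasts, and 5hmC covered 9.22 kb. Over all windows 5hmC covered more than 5mC in 16784 (76.0%) and less in 1551 (7.02%). In all, the iPS 5hmC list covered 186.6 Mb and the 5mC list 59.7 Mb. That by itself makes windows with more 5hmC frequent and the excess of 5hmC the larger one.

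**Figure D4:**
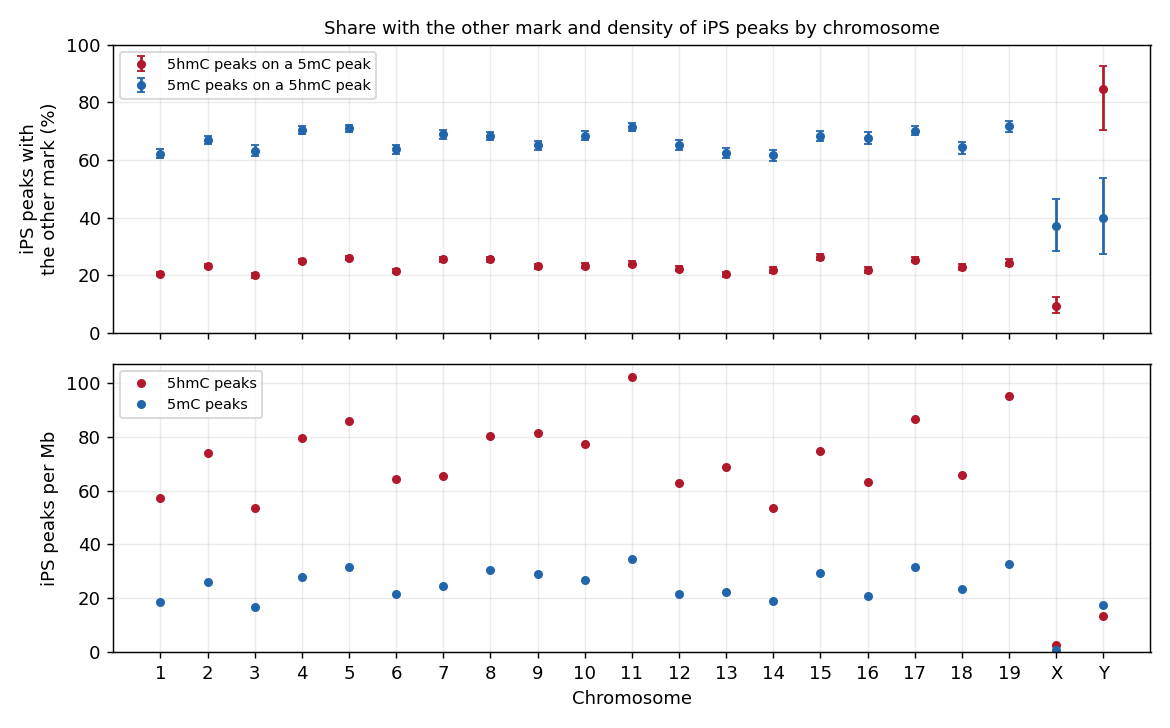
Share of iPS 5hmC peaks on a 5mC peak and of iPS 5mC peaks on a 5hmC peak by chromosome, with 95% Wilson intervals (top), and peaks per Mb of each list (bottom). The autosomes lie between 19.99% and 26.5% for 5hmC and between 61.6% and 71.7% for 5mC, and chromosome X lies below them in both.

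Across the 19 autosomes the makeup of the peaks varied little beside the large differences in density. 5hmC peaks per Mb ranged from 53.5 on chromosome 3 to 102.0 on chromosome 11, and 5mC peaks per Mb from 16.8 to 34.7 on the same chromosomes. The number of 5hmC peaks per 5mC peak was between 2.54, on chromosome 15, and 3.19, on chromosome 3. The share of 5hmC peaks with 5mC ranged from 19.99% on chromosome 3 to 26.5% on chromosome 15, and that of 5mC peaks with 5hmC from 61.6% on chromosome 14 to 71.7% on chromosome 19. Over the 19 autosomes the densities of both marks had a Spearman rho of 0.98. The density of 5mC and the share of 5hmC peaks with 5mC had a rho of 0.81. A denser list gives more overlaps, and gene and CpG density, which differ between chromosomes, were not analysed here.

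The classes were spread unequally over the autosomes. Relative to the mean of all autosomes, the density of 5mC peaks with 5hmC ranged from 0.624 on chromosome 3 to 1.46 on chromosome 11. That of 5mC peaks without 5hmC had a narrower range, from 0.743 on chromosome 3 to 1.21 on chromosome 9. On chromosome 11, the densest chromosome for both marks, 5mC peaks without 5hmC stood at 1.19 times the mean.

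Chromosome X held 422 5hmC and 108 5mC peaks, and a smaller share of them carried the other mark than on any autosome. Of the X 5hmC peaks 39 carried 5mC, or 9.24% (6.83 to 12.4), and of the X 5mC peaks 40 carried 5hmC, or 37.0% (28.5 to 46.4). Both intervals lay below the shares of each autosome. Peaks are sparse on X, with 2.62 5hmC peaks per Mb, and the intervals hold the shares of peaks that were alone in their 100 kb window anywhere in the genome, 9.89% for 5hmC and 44.5% for 5mC. Relative to the autosomal mean, X density was 0.0143 for 5hmC peaks with 5mC, 0.0431 for 5hmC peaks without it, 0.0146 for 5mC peaks with 5hmC and 0.0509 for 5mC peaks without it. The 2 classes with both marks thus had the lowest relative densities on X. X density was thus far below the autosomal mean in every class. The sex of the line and the way reads on X were mapped or filtered were not known here, and no cause of the low density was tested. Chromosome Y, with a listed span of 2.86 Mb, went the other way for 5hmC, as 33 of its 39 5hmC peaks carried 5mC, or 84.6% (70.3 to 92.8). Of its 50 5mC peaks, 20 carried 5hmC, or 40.0% (27.6 to 53.8), which is below the share of each autosome. These 20 5mC peaks were the partners of all 33 5hmC peaks, so several 5hmC peaks shared a partner and are not independent.

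**Figure D5:**
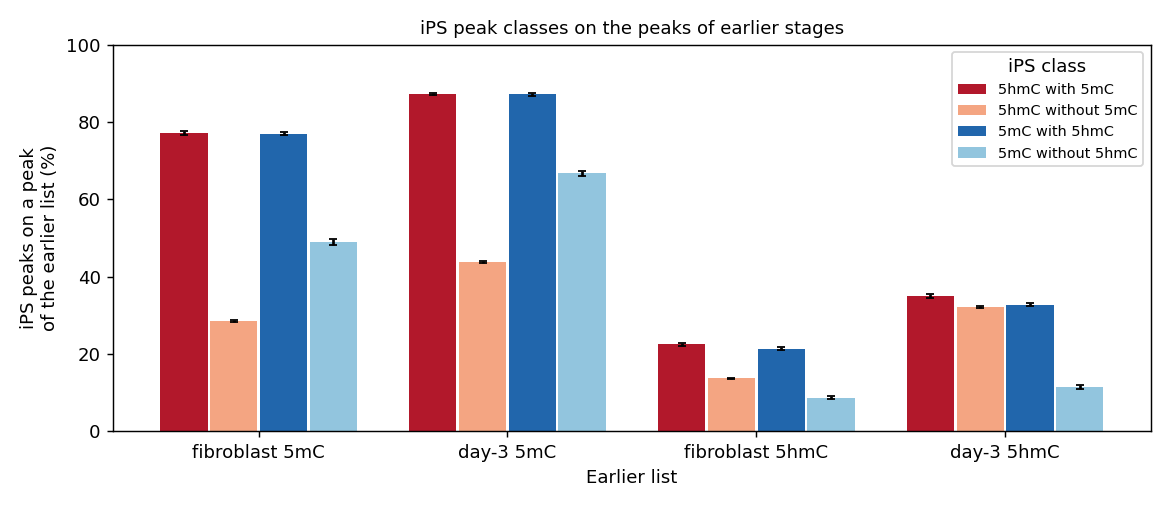
Percentage of the iPS peaks of each class that overlapped a peak of the fibroblast and day-3 lists; bars are shares with their 95% Wilson intervals. 5hmC peaks without 5mC and 5mC peaks without 5hmC lie lower than the classes with both marks on all 4 lists, with the smallest gap between the 5hmC classes for day-3 5hmC.

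The lists of the earlier stages took no part in defining the classes, and the classes differed in their overlap with them. Most iPS 5mC peaks lay on an earlier 5mC peak (shares below), and 5hmC peaks with 5mC are those that touch an iPS 5mC peak. Part of the contrast in earlier 5mC is therefore set by the way the classes are defined, and it is no independent support. Of all iPS 5hmC peaks 39.9% lay on a fibroblast 5mC peak and 54.1% on a day-3 5mC peak. Among 5hmC peaks with 5mC these shares were 77.1% (76.7 to 77.5) and 87.3% (87.0 to 87.6), and among those without 5mC 28.5% (28.3 to 28.8) and 43.9% (43.6 to 44.2). The difference in fibroblast 5mC, 48.6 percentage points, was between 37.1 and 44.3 points within each quintile of width and between 30.8 and 45.3 within each quintile of score.

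5mC peaks went the same way. Of all iPS 5mC peaks 67.8% lay on a fibroblast 5mC peak and 80.5% on a day-3 5mC peak. With 5hmC the shares were 77.0% and 87.2%, and without 5hmC they were 49.0% and 66.8%. The 5mC peaks with 5hmC are largely the same places as the 5hmC peaks with 5mC. Their shares are therefore nearly equal by definition and are no second result. The difference in fibroblast 5mC, 28.0 percentage points, was 11.5 points with a score of at least 100. Of the 5mC peaks without 5hmC, 4719 (23.5%) overlapped no peak of any of the 4 earlier lists, against 1962 (4.78%) of those with 5hmC. Among all iPS 5mC peaks this share was 10.9%.

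Earlier 5hmC also differed between the classes. Of all iPS 5hmC peaks 15.7% lay on a fibroblast 5hmC peak, namely 22.5% of those with 5mC and 13.6% of those without. Of all iPS 5mC peaks 17.1% lay on a fibroblast 5hmC peak, namely 21.3% of those with 5hmC and 8.60% of those without. Of all iPS 5mC peaks 25.7% lay on a day-3 5hmC peak, namely 32.8% (32.3 to 33.2) of those with 5hmC and 11.4% (10.99 to 11.86) of those without. 5mC peaks that lacked 5hmC in iPS cells were thus on earlier 5hmC peaks less often than those with it.

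For iPS 5hmC peaks on day-3 5hmC the direction turned with the ranking. Over the whole list, 32.9% of the 5hmC peaks lay on a day-3 5hmC peak, 35.0% (34.5 to 35.4) of those with 5mC and 32.2% (32.0 to 32.5) of those without. Within each quintile of score the share was lower for peaks with 5mC. In the lowest quintile it was 16.6% against 22.3%, in the fourth 31.4% against 38.4%, and in the highest 49.9% against 51.1%, where the intervals overlapped. Within quintiles of width it was lower by 2.39 to 5.57 percentage points in the 4 narrower groups and practically equal in the widest, at 49.1% against 49.2%. The pooled difference of 2.71 points thus had the opposite sign to those within quintiles, and peaks with 5mC were the wider and higher-scoring ones.

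Most places of 5hmC peaks without 5mC in iPS cells had no listed peak in fibroblasts. Neither mark was listed in fibroblasts at 61.0% of them (60.7 to 61.2), 5mC without 5hmC at 25.4%, 5hmC without 5mC at 10.5% and both at 3.14%. For 5hmC peaks with 5mC these shares were 15.2%, 62.3%, 7.68% and 14.9%. Over all iPS 5hmC peaks they were 50.2%, 34.0%, 9.84% and 5.89%. No peak of any earlier list was found at 44156 (33.1%) of the 5hmC peaks without 5mC and at 1916 (4.69%) of those with 5mC. Among all iPS 5hmC peaks this share was 26.5%. In fibroblasts, then, the places of the shared peaks were mainly 5mC places. Those of the 5hmC peaks without 5mC were unlisted more often than those of all iPS 5hmC peaks. An unlisted place may still carry a mark below the score of 50.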

How the data were processed

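DNA captured with an antibody against 5hmC or 5mC was sequenced, and the authors called peaks in each library. Tools listed in the submitters' processing notes are MACS 1.4.1, Bowtie 0.12.7 and CASAVA 1.8, with build mm9. In the deposited lists each peak has a position and a score, which no list gives below 50 and whose scale no source used here states. Whether an input library was used, the settings and the read numbers were not stated either, so depth is unknown.

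Per the labels' protocols, 500 ng of adapter-ligated DNA entered each capture, followed by 14 to 16 cycles of amplification and selection of 300 to 500 bp. Capture favours regions with many modified cytosines and shows neither single cytosines nor both marks on 1 molecule.

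Libraries were grouped by title. Overlaps, distances and covered lengths were computed in Python 3.11.15 with numpy 2.4.6, pandas 2.3.3 and scipy 1.17.1, tested on 4000 simulated peaks with 0 errors, and equal to bedtools 2.31.1 in all 30 ordered pairs of lists. Distances are from edge to edge. Medians have binomial order-statistic intervals, and shares Wilson intervals. A window counts peaks by their centre. Named regions were, per class, the 3 best-scoring peaks, the 3 most extreme windows of each kind, the 3 longest runs and the extreme autosomes. Members, lists and rules were chosen with earlier results of these data known. Alternatives were a score of at least 100, stricter overlaps, lists of equal length, joined peaks, autosomes only and other distances.

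Positions are on mm9, counted from 1. The reference tables at hand are on GRCm38, so no genes, sequences or CpG content were assigned.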

Additional observations from a re-analysis of the deposited data

Results flagged for a closer look

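The difference between the marks had opposite signs at different stages in 6 measures. With single libraries none of these differences was tested, and the list lengths, which differ by stage, enter each of them. The log2 ratio of 5hmC to 5mC peak numbers stood at -1.30 for fibroblasts, -0.51 for day 3 and 1.51 for iPS cells. The log2 ratio of covered base pairs was -1.62, -0.42 and 1.64 at the same stages. The share of peaks with the other mark was higher for 5hmC than for 5mC by 16.0 percentage points among fibroblasts and 11.6 at day 3, whereas iPS cells had a difference of -43.7. The share of peaks with a neighbour of their own list within 5 kb, 5hmC minus 5mC, was -37.7, -4.77 and 26.2 percentage points. The share of peaks of at least 3 kb, 5hmC minus 5mC, was -0.68, 0.73 and 1.10 percentage points. The median width of 5hmC minus 5mC peaks came to -122 bp, 28 bp and 24 bp, in the same order.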

How the results depend on the processing

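Each of the 10 results kept its sign in all 64 recomputations. For the shares of peaks with the other mark this was fixed in advance, as a percentage cannot change sign. Those shares ranged from 13.6% to 38.3% for 5hmC and from 40.6% to 70.1% for 5mC. Of the 64 recomputations, 17 stayed within the counting interval of the value reported. With autosomes only, all 10 did. The results are given below in the order share of 5hmC peaks with 5mC, share of 5mC peaks with 5hmC, difference in median width (5hmC, then 5mC), in median score (5hmC, 5mC), in peaks with a neighbour within 5 kb (5hmC, 5mC) and in peaks on fibroblast 5mC (5hmC, 5mC), each as peaks with the other mark minus those without. With a score of at least 100 they were 13.6%, 70.1%, 353 bp, 147 bp, 119.3, 19.8, 9.76, 11.4, 42.7 and 11.5 percentage points. This setting kept 92589 5hmC and 17737 5mC peaks, and a score of 100 need not mean the same in both lists. When the overlap had to reach 50% of a peak's own length, the first 8 were 18.5%, 62.6%, 129 bp, 91 bp, 50.3, 16.0, 5.31 and 10.2 points. When the centre had to lie inside the other mark's peak, they were 19.4%, 62.6%, 157 bp, 91 bp, 58.7, 16.1, 5.72 and 10.03 points. With 61171 best-scoring peaks of each list, for which the lowest 5hmC score was 142.9, they were 38.3%, 40.6%, 208 bp, 122 bp, 73.9, 21.4, 6.76, 15.2, 37.1 and 26.9 points. With peaks within 1000 bp joined, the moved values were 26.8%, 67.7%, 825 bp, 134 bp, 98.6, 19.3, 11.2 points for 5hmC neighbours and 50.2 points for 5hmC on fibroblast 5mC. The neighbour differences were 9.57 and 8.15 points within 1 kb and 3.10 and 9.87 points within 20 kb. No paired analysis was possible because each stage and mark has 1 library. Unknown depth limits all counts: peaks under the score of 50 are not listed, so a peak without the other mark may carry it below that level.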
